A study of Mus musculus with 13 samples.

Results

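A stretch of distal mouse chromosome 4 (GRCm38, chr4:144000000-148500000) holds 62 protein-coding genes of GENCODE M21, 20 of which are zinc finger genes. The 62 members were chosen by position alone from the 49315 rows of the deposited count tables, 1324 of which are protein-coding genes of chromosome 4. The position itself was selected on the node comparison between genotypes, because genes with the widest differences there lay in it. In that comparison the members are therefore described by their values, with no p-value for any of them.

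The libraries are bulk RNA-seq of whole tissue from female mice carrying intradermal B16F10 tumours, a melanoma line injected as 200000 cells in matrigel. Foxp3ΔJag1 tdLN (n = 3) are tumour-draining lymph nodes of mice labelled Foxp3creERT2;Jag1fl, in which tamoxifen-activated Cre, driven by the Foxp3 locus, removes the Notch ligand Jag1 in regulatory T cells. Foxp3Ctrl tumour (n = 3) and Foxp3Ctrl tdLN (n = 3) are tumours and draining nodes of the controls, which the sample labels call WT and the design text describes as Jag1 fl/wt with the Foxp3eGFP-Cre-ERT2 allele. Every mouse, controls included, had received 5 doses of tamoxifen at 0.1 mg per g body weight, begun at 6 to 8 weeks of age, and tumour cells after a washout of 9 days, at up to 11 weeks. The strain background of the lines is not given in the sources used here. The 4 Foxp3ΔJag1 tumours in the labels were not analysed here. Foxp3Ctrl tumours and Foxp3Ctrl nodes came from the same 3 mice by library name, and nodes of the different genotypes came from different mice.

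Zinc finger genes of the KRAB class encode repressors. Their fingers bind DNA, and their KRAB box recruits TRIM28 (KAP1), which brings the histone methyltransferase SETDB1 and heterochromatin protein 1 and silences the bound site, often a retroviral or other transposable element. Such genes lie in clusters that grew by local duplication, so neighbours share long runs of identical sequence.

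The first zinc finger is shown for the 7 zinc finger members that averaged at least 0.5 CPM (counts scaled to the total of the library) in a node group and whose node libraries did not overlap between the genotypes, because the near-identity of these genes decides how far their reads can be told apart. The sequences were read from GENCODE M21 coding sequences, each is 63 bases long and lies in 1 exon, and capitals mark the codons of the cysteines and histidines that hold the zinc ion.
Zfp990, chr4:145537157-145537219, plus strand: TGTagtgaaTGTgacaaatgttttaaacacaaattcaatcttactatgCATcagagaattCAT
Zfp534, chr4:147675425-147675487, minus strand: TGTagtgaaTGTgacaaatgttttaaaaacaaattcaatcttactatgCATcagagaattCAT
Zfp987, chr4:146124723-146124785, plus strand: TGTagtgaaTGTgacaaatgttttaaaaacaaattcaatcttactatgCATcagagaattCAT
Zfp985, chr4:147583394-147583456, plus strand: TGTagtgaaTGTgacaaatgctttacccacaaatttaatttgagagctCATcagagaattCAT
Zfp992, chr4:146466547-146466609, plus strand: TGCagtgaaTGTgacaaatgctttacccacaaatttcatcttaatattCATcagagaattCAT
Zfp991, chr4:147178891-147178953, plus strand: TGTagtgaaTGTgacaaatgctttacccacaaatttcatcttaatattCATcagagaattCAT
Zfp984, chr4:147755613-147755675, minus strand: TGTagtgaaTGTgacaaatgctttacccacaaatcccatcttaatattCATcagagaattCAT
The fingers of Zfp534 and Zfp987 equalled that of Zfp990 at 62 of 63 bases. Zfp991 and Zfp984 equalled it at 56 bases, Zfp992 at 55 and Zfp985 at 52. Over whole transcripts the order was different. Of all windows of 100 bases in the transcripts of Zfp990, 3.6% also occurred in another annotated gene, against 1.73% for Zfp985, 28.6% for Zfp992, 30.92% for Zfp984, 40.24% for Zfp534, 70.34% for Zfp991 and 70.81% for Zfp987. Apart from Zfp990 and Zfp985, reads of these genes can thus often be lost or fall on copies, and their counts are uncertain to that extent. Only exact matches to annotated transcripts were counted, so reads from near copies were not excluded for Zfp990 and Zfp985 either. Among the 20 zinc finger members the shared share ran from 0% in Zfp933 to 75.33% in Rex2, with a median of 41.4%.

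All 20 zinc finger members carried a KRAB-box pattern in their coding sequence, and so did Gm21411, which codes for 136 residues and holds no C2H2 finger. The 48 bases around that pattern are shown for Zfp990, for Gm21411, for Zfp985 and for Zfp933, which lies at the distal edge of the cluster. Capitals mark the codons of the phenylalanine, the glutamate pair and the tryptophan of the pattern.
Zfp990, chr4:145534831-145534878, plus strand: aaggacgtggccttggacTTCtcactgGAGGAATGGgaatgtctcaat
Gm21411, chr4:146893813-146893860, minus strand: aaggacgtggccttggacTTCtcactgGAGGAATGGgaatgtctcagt
Zfp985, chr4:147581257-147581304, plus strand: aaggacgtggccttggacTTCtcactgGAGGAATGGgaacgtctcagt
Zfp933, chr4:147828734-147828781, minus strand: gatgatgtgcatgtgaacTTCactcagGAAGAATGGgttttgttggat
The stretch of Gm21411 equalled that of Zfp990 at 47 of 48 bases. The stretch of Zfp985 equalled that of Zfp990 at 46 bases and the stretch of Zfp933 at 29. Of the transcript windows of Gm21411, 35.33% occurred in another gene, most often in Zfp989. The zinc finger members had 2 to 20 C2H2 motifs each (median 11.5), with 13 in Zfp990, 15 in Zfp534, 10 in Zfp985 and 20 in Gm13212. Of the 20, 16 lie on the plus strand and 4 on the minus strand, and these 4 (Zfp979, Zfp534, Zfp984 and Zfp933) are the most distal ones.

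Level divided the interval into blocks. From its proximal end, the 10 members of the PRAME and oogenesin family, which are known from germ cells and tumours, and the 7 members related to arylacetamide deacetylase had under 0.5 CPM in every group. Of these 17, 12 had no count in any library. Pramel4 is the first member (chr4:144059126-144069327) and had no count, and neither had Pramef17, the nearest protein-coding gene outside the proximal end. In all, 30 members stayed under a mean of 0.5 CPM in every group, 14 of them with no count in any of the 9 libraries. Besides the families above they are the zinc finger genes Zfp980, Zfp986, Zfp600, Zfp981, Zfp989, Rex2, Zfp988 and Zfp978, and 1700012P22Rik, Gm9944, Gm16503, Nppa and Disp3. The other 32 members reached 0.5 CPM in a group, and 21 of them reached 10 CPM. Mtor, the growth-control kinase, straddles the distal limit and is no member; it had 70.0 to 76.2 CPM in Foxp3ΔJag1 nodes, 57.1 to 66.9 CPM in Foxp3Ctrl tumours and 71.1 to 73.2 CPM in Foxp3Ctrl nodes.

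The 9 libraries used held 32117478 to 44540888 counts each. Summed B-cell markers (4 genes) stood at 2275 to 2444 CPM in Foxp3ΔJag1 nodes, 1.61 to 2.58 CPM in Foxp3Ctrl tumours and 2250 to 2453 CPM in Foxp3Ctrl nodes, and 5 melanoma markers stood at 5.70 to 9.19 CPM in Foxp3ΔJag1 nodes, 16390 to 21780 CPM in Foxp3Ctrl tumours and 4.203 to 24.8 CPM in Foxp3Ctrl nodes, so tissue and label matched. Foxp3Ctrl node replicate 3 had the highest melanoma sum (24.8 CPM) and the highest epithelial sum (4 keratin and Epcam genes, 116 CPM, against 6.91 to 31.3 CPM in the other nodes). Adipocyte markers (4 genes) summed to 241, 25.2 and 20.6 CPM in Foxp3ΔJag1 nodes and 20.6, 82.9 and 192 CPM in Foxp3Ctrl nodes. The part of such differences in the node comparison was not tested. Jag1 itself had 27.8, 20.7 and 23.8 CPM in Foxp3ΔJag1 nodes and 22.0, 23.2 and 24.4 CPM in Foxp3Ctrl nodes. In whole nodes, where regulatory T cells are a minority, its level does not check the deletion. In bulk tissue, fewer cells of a type and less RNA per cell cannot be told apart.

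The comparison of Foxp3ΔJag1 with Foxp3Ctrl nodes sets draining nodes of different mice side by side, and their strain background is not given. An effect of the Jag1 deletion and other differences between the mice, inherited ones included, cannot be told apart here, and neither was tested. Within the interval, the widest difference in CPM was in Zfp990 (chr4:145510759-145539188). Zfp990 had 28.2, 31.2 and 27.5 CPM in Foxp3ΔJag1 nodes, 0.0799, 0 and 0.0311 CPM in Foxp3Ctrl tumours, and 0.110, 0.0697 and 0.226 CPM in Foxp3Ctrl nodes. Every Foxp3ΔJag1 library was far above all 6 control libraries, and the 3 Foxp3ΔJag1 libraries lay close together. Summed over libraries, 3347 reads fell on Zfp990 in Foxp3ΔJag1 nodes and 15 in Foxp3Ctrl nodes, a ratio of 221 per read sequenced. The position was chosen on this comparison, so the ratio is a description and is given without an interval. Its fitted log2 fold change was 7.73. Per kilobase of exon, Zfp990 averaged 8.29 CPM in Foxp3ΔJag1 nodes, the second highest of the 20 zinc finger members. It was in place 17 in Foxp3Ctrl tumours and in place 14 in Foxp3Ctrl nodes.

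Its closest neighbours did not share that difference. Gm13212 lies 45977 bases distal to Zfp990 on the same strand, and Tnfrsf8 195594 bases proximal to it. Gm13212 had 17.7, 16.8 and 18.8 CPM in Foxp3ΔJag1 nodes, 1.68, 1.02 and 1.81 CPM in Foxp3Ctrl tumours and 15.6, 14.95 and 17.8 CPM in Foxp3Ctrl nodes. The node libraries overlapped, and the tumours were far lower. Tnfrsf8, which encodes the lymphocyte receptor CD30, averaged 4.51 ± 0.527 CPM in Foxp3ΔJag1 nodes and 5.06 ± 1.31 CPM in Foxp3Ctrl nodes (SD, n = 3 each), and these libraries overlapped too.

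Gm21411 (chr4:146892406-146909590, minus strand) had counts of 28, 27 and 32 in Foxp3ΔJag1 nodes, 0, 0 and 1 in Foxp3Ctrl tumours and no count in Foxp3Ctrl nodes. If the 3 Foxp3Ctrl nodes together are given the 3 counts that a count of 0 allows, it was at least 28.7-fold higher in Foxp3ΔJag1 nodes. Its level there was 0.754 ± 0.0526 CPM (SD, n = 3). It lies 1353217 bases distal to Zfp990, with 8 zinc finger members in between.

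Zfp534 and Zfp985 stand 88303 bases apart, on opposite strands, with Zfp979 between them. Zfp534 (chr4:147673502-147702553) had 0.703, 0.965 and 0.629 CPM in Foxp3ΔJag1 nodes, 0, 0 and 0.0623 CPM in Foxp3Ctrl tumours and 0, 0.0232 and 0.0846 CPM in Foxp3Ctrl nodes. This was 87 reads in Foxp3ΔJag1 nodes and 4 in Foxp3Ctrl nodes, a ratio of 21.5 per read sequenced, which rests on few control reads and is likewise a description. Its fitted log2 fold change was 4.30, and 5.56 without Foxp3Ctrl node replicate 3. Zfp985 (chr4:147553277-147585198) had 2.06, 1.78 and 2.04 CPM in Foxp3ΔJag1 nodes, 0.479, 0.464 and 0.716 CPM in Foxp3Ctrl tumours and 0.633, 0.395 and 0.761 CPM in Foxp3Ctrl nodes. Both genes were higher in each Foxp3ΔJag1 node than in any control library. Zfp979, which RefSeq also lists as Ssm1b, had 4.79, 4.34 and 5.88 CPM in Foxp3ΔJag1 nodes and 4.85, 5.20 and 6.88 CPM in Foxp3Ctrl nodes, which overlapped.

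Zinc finger members with lower values in Foxp3ΔJag1 nodes lay among those with higher ones. Zfp987 had 0.495, 0.362 and 0.472 CPM in Foxp3ΔJag1 nodes, 0, 0.0732 and 0.0311 CPM in Foxp3Ctrl tumours and 1.07, 0.673 and 1.18 CPM in Foxp3Ctrl nodes. Zfp991 had 4.30, 4.04 and 5.64 CPM in Foxp3ΔJag1 nodes, 15.1, 13.0 and 16.8 CPM in Foxp3Ctrl tumours and 7.63, 6.36 and 7.02 CPM in Foxp3Ctrl nodes. Zfp984 had 27.7, 25.8 and 28.5 CPM in Foxp3ΔJag1 nodes, 22.1, 17.1 and 23.3 CPM in Foxp3Ctrl tumours and 33.8, 32.8 and 38.7 CPM in Foxp3Ctrl nodes. In all 3 genes the lowest control node exceeded the highest Foxp3ΔJag1 node, by the widest ratio in Zfp987. Zfp984 shares 282 exon bases with the non-coding Gm20707 on the same strand, so its counts may miss reads of that part or hold reads of the other gene. Zfp992 was higher in Foxp3ΔJag1 nodes, with 6.20, 7.12 and 6.22 CPM in Foxp3ΔJag1 nodes, 2.66, 2.49 and 2.43 CPM in Foxp3Ctrl tumours and 4.08, 4.32 and 5.64 CPM in Foxp3Ctrl nodes.

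**Figure D1:**
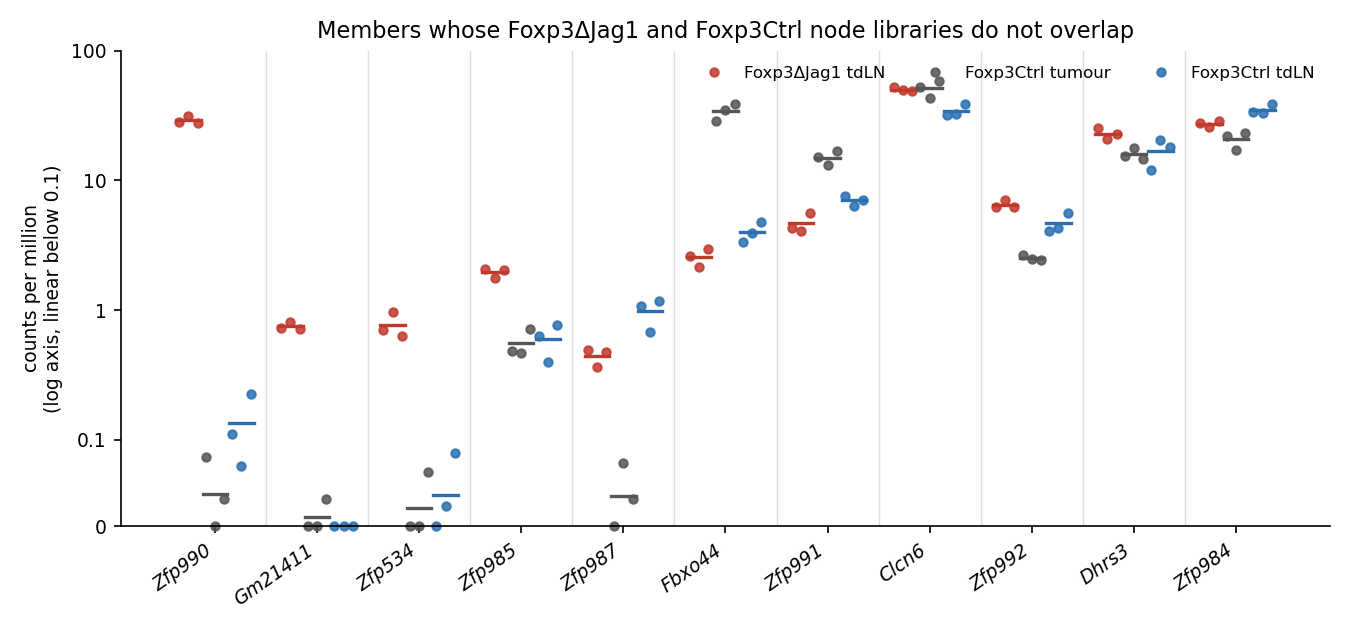
CPM in each library (points; 3 per group, bars are means) for the 11 members with at least 0.5 CPM in a node group whose Foxp3ΔJag1 and Foxp3Ctrl node libraries do not overlap; the axis is logarithmic above 0.1 CPM and linear below it. Zfp990 sits at 27.5 to 31.2 CPM in Foxp3ΔJag1 nodes and at or below 0.226 CPM in the 6 control libraries, while Dhrs3 and Zfp984 have the smallest fold differences of the 11.

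Outside the zinc finger genes, 3 further members were separated between the node groups. Clcn6, an exchanger of chloride and protons in late endosomes, had 52.3, 49.4 and 48.7 CPM in Foxp3ΔJag1 nodes, 52.4, 43.6 and 57.9 CPM in Foxp3Ctrl tumours and 31.9, 32.5 and 39.1 CPM in Foxp3Ctrl nodes. Its level in Foxp3ΔJag1 nodes lay in the range of the control tumours and above the control nodes. Dhrs3, a retinaldehyde reductase, had 25.2, 21.02 and 22.8 CPM in Foxp3ΔJag1 nodes, 15.5, 17.9 and 14.6 CPM in Foxp3Ctrl tumours and 11.98, 20.5 and 18.2 CPM in Foxp3Ctrl nodes, so the gap between the node groups was narrow. Fbxo44, a substrate receptor of a ubiquitin ligase, had 2.63, 2.14 and 2.94 CPM in Foxp3ΔJag1 nodes, 28.8, 34.9 and 38.7 CPM in Foxp3Ctrl tumours and 3.36, 3.95 and 4.74 CPM in Foxp3Ctrl nodes.

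Of the 62 members, 34 passed the filter on low counts in the node comparison. In 12 of these 34 (35.3%) the node groups did not overlap, 8 with higher and 4 with lower values in Foxp3ΔJag1 nodes, beside 7.29% of the 18440 genes tested (4.11% higher). The 12 are the 11 genes above and Zfp989, which stayed under 0.5 CPM. Among the higher ones, Zfp990, Gm21411, Zfp534 and Zfp989 passed the filter only through the Foxp3ΔJag1 libraries, in which they were high. Zfp980, Zfp986 and Rex2 failed the filter, and their node groups did not overlap either. They had 7, 10 and 11 reads in Foxp3ΔJag1 nodes against 1, 1 and 0 in Foxp3Ctrl nodes. No member that failed the filter was separated the other way. The edgeR quasi-likelihood test called 2 of the 34, Zfp990 and Gm21411, beside 0.038% of all genes tested (7 genes, Benjamini-Hochberg adjustment at 0.05). Both shares come from the comparison on which the interval was chosen, and nothing is read from them. The median log2 fold change was -0.05 over the 34 members and -0.0045 over all genes. Without Foxp3Ctrl node replicate 3 the count of members called was 4, and without any other single node library it was 1. These counts come from the same comparison, and nothing is read from them either.

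Along chromosome 4 the share of tested protein-coding genes with non-overlapping nodes was 7.97% (57 of 715) before the flanks. It was 20% (7 of 35) in the 4500000 bases before the interval and 12.2% (6 of 49) in the same length after it. In the remaining distal part it was 29.0% (18 of 62). Of the 861 chromosome 4 genes tested on either side of the interval, edgeR called none, beside 7 of all 18440 genes tested. An unadjusted edgeR p under 0.05 was found for 42 of the 861, beside 581 (3.15%) of the 18440. DESeq2 called 6 of them and 70 over all genes. These values use the same comparison and are a description of where on the chromosome such genes lay.

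**Figure D2:**
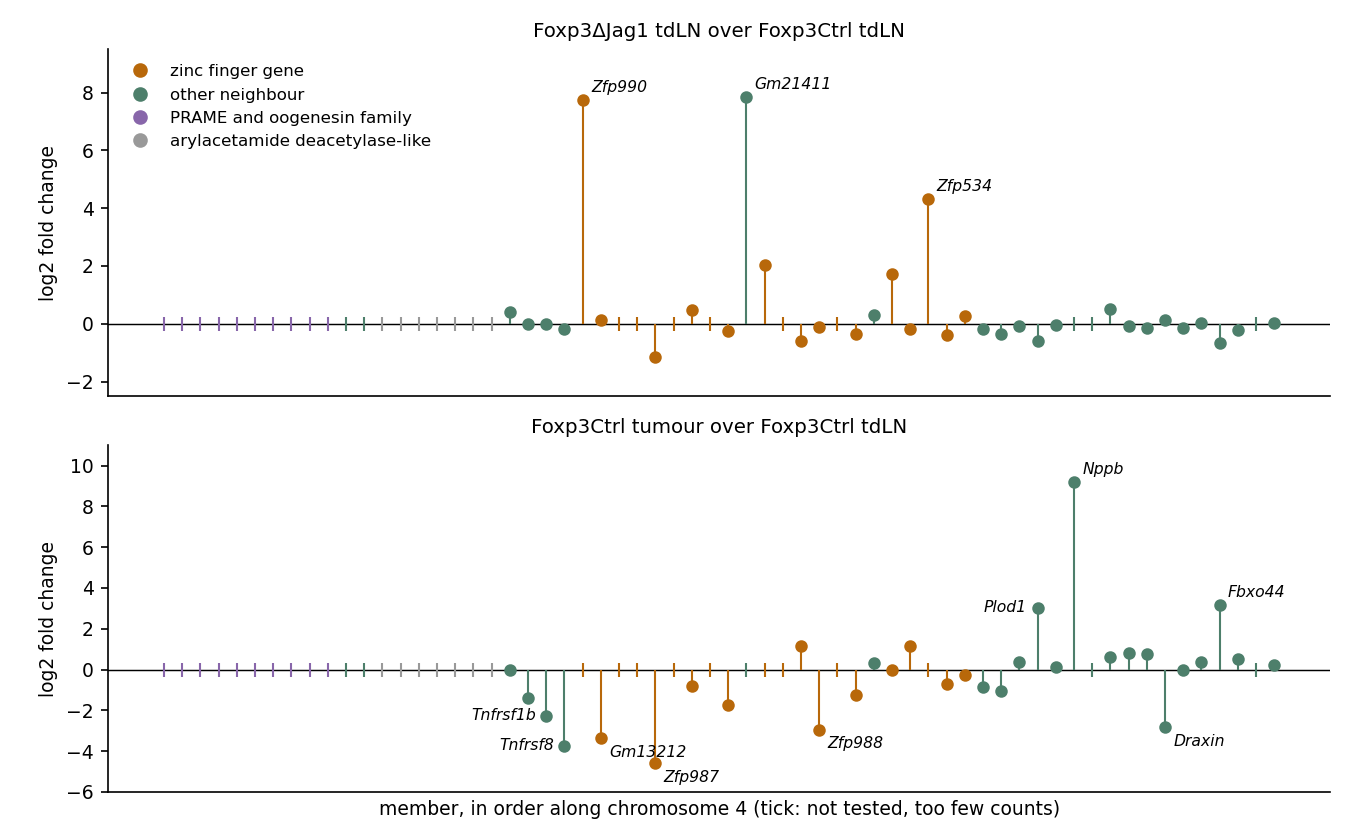
Log2 fold change of each member in order along the chromosome, for Foxp3ΔJag1 over Foxp3Ctrl nodes (top) and Foxp3Ctrl tumour over Foxp3Ctrl node (bottom); colours give the gene family and ticks mark members with too few counts to be tested. In the top panel Zfp990 (7.73), Gm21411 and Zfp534 (4.30) stand above members near 0, the fitted value of Gm21411 resting on a prior count since its control nodes had none, and in the bottom panel Nppb (9.19) stands highest.

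Summed over the 20 zinc finger members, the level was 114.0 ± 2.00 CPM in Foxp3ΔJag1 nodes, 65.1 ± 8.15 CPM in Foxp3Ctrl tumours and 87.8 ± 10.3 CPM in Foxp3Ctrl nodes (SD, n = 3 each). Zfp990 alone gave 24.9%, 27.8% and 23.7% of that sum in Foxp3ΔJag1 nodes, 0.124%, 0% and 0.0424% in Foxp3Ctrl tumours and 0.128%, 0.0887% and 0.228% in Foxp3Ctrl nodes. Without Zfp990 the sum was 85.1 ± 3.76 CPM in Foxp3ΔJag1 nodes and 87.7 ± 10.2 CPM in Foxp3Ctrl nodes, which overlapped. The summed output of the other 19 zinc finger members thus differed by less than the spread between libraries.

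**Figure D3:**
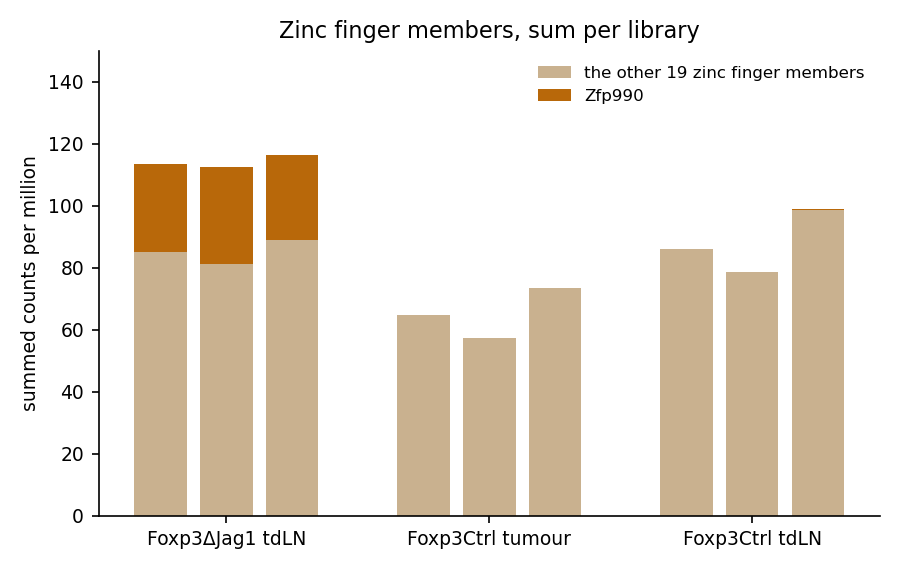
Summed CPM of the 20 zinc finger members in each of the 9 libraries (bars), with the part from Zfp990 in the darker colour. Zfp990 adds 24.9%, 27.8% and 23.7% of the sum in Foxp3ΔJag1 nodes and at most 0.228% in any control library.

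A list of 26 genes of KRAB repression was set beside the members, 22 for proteins that work with the repressors and 4 KRAB zinc finger genes outside the interval. All 26 were tested, and edgeR and DESeq2 called none of them, while over all genes edgeR called 7 and DESeq2 70. With so few calls over all genes, nothing is read from their absence here. None of the 26 had an unadjusted edgeR p under 0.05, beside 3.15% of all genes. None had non-overlapping nodes, beside 7.29% of all genes, and the median log2 fold change was -0.02. Trim28 averaged 222 ± 5.26 CPM in Foxp3ΔJag1 nodes and 235 ± 23.2 CPM in Foxp3Ctrl nodes (SD, n = 3 each), and Setdb1 averaged 70.0 ± 0.206 CPM in Foxp3ΔJag1 nodes and 68.9 ± 1.76 CPM in Foxp3Ctrl nodes. Among 365 tested genes named Zfp, Zkscan or Zscan elsewhere in the genome, edgeR and DESeq2 called none, from which again nothing is read. An unadjusted edgeR p under 0.05 was found for 10 of the 365, beside 3.15% of all genes. Non-overlapping nodes were found for 22 (6.03%), 8 higher and 14 lower, beside 7.29% of all genes.

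Promoter sequence is shown for the zinc finger members of the node comparison with an entry in the RefSeq table (GRCm38.p6), for the first 3 in the order of their difference: Zfp534, Zfp985 and Zfp987. Each spans 250 bases before to 50 after the annotated start. Capitals mark the longest run that all 3 share, found by a script.
Zfp534, chr4:147702582-147702881, minus strand: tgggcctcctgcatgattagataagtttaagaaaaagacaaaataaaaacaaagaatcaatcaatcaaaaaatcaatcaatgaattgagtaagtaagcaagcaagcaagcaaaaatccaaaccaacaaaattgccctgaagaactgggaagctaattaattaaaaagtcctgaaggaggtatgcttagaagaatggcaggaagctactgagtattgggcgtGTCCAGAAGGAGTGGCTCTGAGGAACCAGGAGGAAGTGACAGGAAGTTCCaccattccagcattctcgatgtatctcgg
Zfp985, chr4:147553027-147553326, plus strand: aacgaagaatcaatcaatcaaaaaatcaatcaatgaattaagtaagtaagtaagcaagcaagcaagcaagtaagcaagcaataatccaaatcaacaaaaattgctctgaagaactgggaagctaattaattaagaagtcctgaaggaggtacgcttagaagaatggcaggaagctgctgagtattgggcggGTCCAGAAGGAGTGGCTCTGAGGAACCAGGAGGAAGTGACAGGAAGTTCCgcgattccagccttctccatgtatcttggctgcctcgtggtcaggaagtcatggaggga
Zfp987, chr4:146097062-146097361, plus strand: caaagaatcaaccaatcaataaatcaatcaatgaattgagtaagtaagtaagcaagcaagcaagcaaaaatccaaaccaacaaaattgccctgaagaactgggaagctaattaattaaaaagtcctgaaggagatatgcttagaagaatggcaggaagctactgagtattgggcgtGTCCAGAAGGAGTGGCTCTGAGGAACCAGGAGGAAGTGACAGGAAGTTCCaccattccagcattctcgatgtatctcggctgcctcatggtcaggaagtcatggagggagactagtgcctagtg
The run of 50 bases was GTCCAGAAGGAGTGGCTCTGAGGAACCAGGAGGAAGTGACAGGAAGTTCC. It began 29 bases before the start of Zfp534, 59 before that of Zfp985 and 74 before that of Zfp987, and in Zfp534 alone it ran past the start. On either strand it occurred as an exact match in no other of the 32851 promoters of the table (3 in all, 0.00913%). The run was defined by these 3 genes, and near copies were not counted. The promoter of Zfp988, whose node libraries overlapped, held it with 1 base changed, so the stretch is not particular to these 3 genes. Zfp534 and Zfp985 had higher and Zfp987 lower values in Foxp3ΔJag1 nodes, so the same run stood in the promoter windows of genes of both directions. Of the 20 zinc finger members 14 have a promoter in the table, matched by gene name or synonym and not by position. The window matched to Zfp993 (chr4:146512599-146512898) lies inside Zfp981 and far before Zfp993 in GENCODE M21 (chr4:146610961-146658160). A window matched to Zfp982 (chr4:147442864-147443163) also lies far before its gene (chr4:147492417-147513486). The counts below include both windows. The letters CCAAT, on either strand, occurred in 12 of these 14 (85.7%) and in 37.4% of all promoters. A member counted if any of its promoters had the letters, whereas the share of all is per promoter, so the units differ. GGGCGG occurred in 10 of 14 (71.4%) and in 35.7% of all, and TATAAA in 1 of 14 (7.14%) and in 13.6% of all. The promoters of these members held a median of 5 CG dinucleotides, against 7 over the table. These matches describe letters in the window and do not show that a factor binds there.

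The second comparison set Foxp3Ctrl tumours against the draining nodes of the same 3 mice, and the interval was not chosen on it. It shares the Foxp3Ctrl nodes with the node comparison. Of the 62 members, 31 passed the filter; Zfp990, Gm21411 and Zfp534 did not. In tumours 10 members were called higher (32.3% of the 31), beside 35.6% of the 18566 genes tested, and 13 were called lower (41.9%), beside 37.6% of all genes. Both shares were near the background, in a contrast in which 73.2% of all genes tested were called. The 13 lower members included 7 of the 11 zinc finger members tested, and 2 zinc finger members were higher. The median log2 fold change was -0.82 over those 11, -0.34 over 367 zinc finger genes elsewhere (84 called higher, 175 lower) and -0.05 over all genes. T-cell markers (4 genes) summed to 16.8 to 25.4 CPM in tumours and 559 to 716 CPM in nodes, and the part of this difference in cell content in the results below was not tested.

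The zinc finger members that fell in tumours ranged widely. Zfp987 had the largest change among all 13, a log2 fold change of -4.57 ± 0.61 (SE; edgeR adjusted p = 0.000258), with all tumours at or below 0.0732 CPM and all nodes at or above 0.673 CPM. Without Foxp3Ctrl tumour replicate 2 it was -5.70. Gm13212 fell by 3.37 on the log2 scale (SE 0.237, edgeR adjusted p = 7.904e-06), with tumours at 1.02 to 1.81 CPM and nodes at 14.95 to 17.8 CPM. Zfp988 fell by 2.94 (log2 fold change -2.30 without Foxp3Ctrl tumour replicate 2), Zfp993 by 1.76, Zfp982 by 1.26, Zfp992 by 0.82 and Zfp984 by 0.70 on the same scale. Zfp991 and Zfp979 rose. Zfp991 had a log2 fold change of 1.15 ± 0.16 (SE; edgeR adjusted p = 0.000291). Zfp979 had 10.1, 11.3 and 14.1 CPM in tumours and 4.85, 5.20 and 6.88 CPM in nodes, a log2 fold change of 1.13 ± 0.20 (SE; edgeR adjusted p = 0.00106). Zfp985 and Zfp933 were not called. Zfp933 averaged 11.5 ± 1.10 CPM in tumours and 14.4 ± 3.15 CPM in nodes (SD, n = 3 each).

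The TNF receptors at the proximal edge of the cluster both fell. Tnfrsf1b, which encodes TNF receptor type II of T cells and myeloid cells, had 36.4, 27.9 and 34.5 CPM in tumours and 161, 182 and 154 CPM in nodes, a log2 fold change of -2.28 ± 0.14 (SE; edgeR adjusted p = 3.604e-06). Tnfrsf8 had 0.320, 0.366 and 0.405 CPM in tumours and 4.87, 6.46 and 3.86 CPM in nodes, a change of -3.75 ± 0.32 (edgeR adjusted p = 2.246e-05). Vps13d, a lipid transfer protein needed for mitochondrial shape and clearance, fell to 55.6 ± 2.37 CPM in tumours, against 152 ± 14.99 CPM in nodes (SD, n = 3 each). Fv1, which restricts murine leukaemia viruses at their capsid, fell by 1.05 and Miip, an inhibitor of cell migration, by 0.86 on the log2 scale.

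The members that rose most in tumours lie distal to the zinc finger genes. Nppb, which encodes the precursor of brain natriuretic peptide, had 12.5, 11.0 and 11.6 CPM in tumours and 0, 0.0232 and 0.0282 CPM in nodes. This was 1291 reads in tumours and 2 in nodes, a ratio of 670 per read sequenced (95% exact interval 185 to 5539, counting error only; edgeR adjusted p = 7.781e-07). Its neighbour Nppa, for atrial natriuretic peptide, stayed under 0.5 CPM in every group and was not tested. Plod1, a lysyl hydroxylase that modifies collagen, had 393, 464 and 318 CPM in tumours and 42.8, 78.2 and 29.4 CPM in nodes, a log2 fold change of 3.00 ± 0.41 (SE; edgeR adjusted p = 0.000705). Relative to their mean, its nodes differed among themselves more than its tumours did. Fbxo44 rose by 3.15 ± 0.17 on the log2 scale (SE; edgeR adjusted p = 2.258e-06), with the values given above and no overlap.

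Smaller rises were called for other members, among them Agtrap, a protein that binds the angiotensin II receptor (log2 fold change 0.77), Clcn6 (0.63), the mitochondrial fusion protein Mfn2 (0.38) and Fbxo6, an F-box protein for glycoproteins (0.37). The call of Fbxo6 was lost without Foxp3Ctrl tumour replicate 1 (edgeR adjusted p = 0.0587) or without Foxp3Ctrl node replicate 3 (edgeR adjusted p = 0.0535). Draxin, an axon guidance protein, fell by 2.81 on the log2 scale, to 0.595 ± 0.200 CPM in tumours, against 4.27 ± 1.86 CPM in nodes (SD, n = 3 each). Among the 8 members tested and not called were Mad2l2, 2510039O18Rik, Fbxo2, Dhrs3 and Gm16503. Mad2l2, a subunit of translesion DNA polymerase zeta, averaged 15.5 ± 1.69 CPM in tumours and 16.4 ± 1.495 CPM in nodes (SD, n = 3 each).

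**Figure D4:**
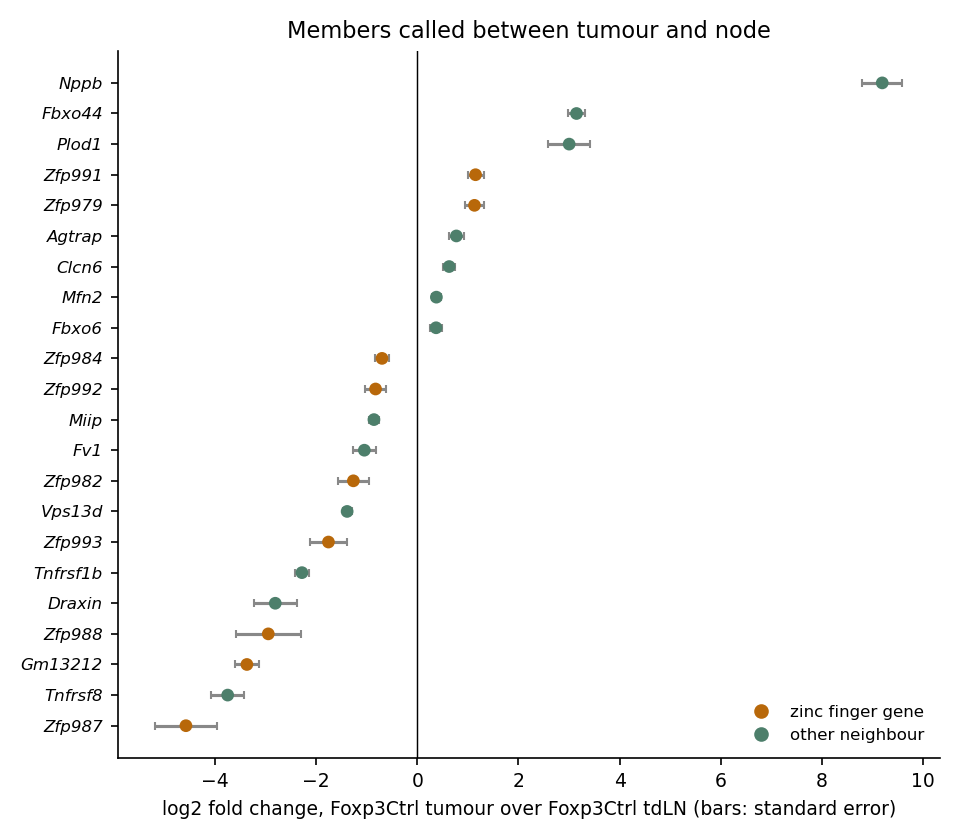
Log2 fold change of 22 of the 23 members called in Foxp3Ctrl tumour over Foxp3Ctrl node (points, with standard errors; edgeR quasi-likelihood test), coloured by family. Nppb (9.19), Fbxo44 (3.15) and Plod1 (3.00) lie farthest right, and 7 of the 9 zinc finger members lie left of 0.

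Of the 26 genes of KRAB repression, 12 (46.2%) were higher and 9 (34.6%) lower in tumours, beside 35.6% and 37.6% of all genes, with 5 not called and a median log2 fold change of 0.12. Of the 22 that are not zinc finger genes themselves, 11 were higher and 7 lower. Uhrf1, which maintains DNA methylation, rose most among them (1.75 ± 0.19, SE; edgeR adjusted p = 7.704e-05), while Trim28 (0.18) and Setdb1 (0.0009) were not called.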

How the data were processed

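The authors trimmed reads with Trimmomatic 0.36, aligned them with STAR 2.5.2b to GRCm38 and counted them per gene with featureCounts of Subread 1.5.2, per the submitters' processing notes; no source used here gives the annotation or the strand setting, and the library protocol names both poly(A) selection and rRNA depletion. The deposited values are raw counts per Ensembl gene in 2 tables, and 3 columns of them that match no sample label were not used. All libraries are of batch 1. Library names tie Foxp3Ctrl tumours and nodes to the same mice (correlations of their deviations from the group means -0.072, 0.123 and -0.005). Names in GENCODE M21 matched 48970 of 49315 rows; zinc finger motifs were counted in translated GENCODE coding sequences. CPM used total counts. Comparisons used edgeR 4.0.16 (R 4.3.3): TMM, filterByExpr, robust quasi-likelihood test, Benjamini-Hochberg at 0.05 over all genes tested, checked on simulated counts; DESeq2 1.42.0, other scalings and filters, a replicate block, a joint fit and leaving out libraries were alternatives. Members, lists and tests were chosen with earlier results of these data known. Genes with per-library values are members of at least 0.5 CPM whose node groups do not overlap, up to 10 members called per direction between tumour and node, and the genes at the limits of the interval; others are named as neighbours or examples. Replicates carry different mouse codes in the library names. The interval given for Nppb covers counting error only. Results for 2 members are not reported here.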

Additional observations from a re-analysis of the deposited data

Results flagged for a closer look

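Of 96 rows inside the interval that are not protein-coding and enter no comparison of the report, 64 had a count in a library and 6 averaged at least 0.5 CPM in Foxp3ΔJag1 nodes. In 2 of these 6, every Foxp3ΔJag1 node was above every Foxp3Ctrl node, beside 758 (4.11%) of the 18440 genes tested. The 6 were kept by their level in Foxp3ΔJag1 nodes alone, which favours higher values there. The genes tested passed a filter that either node group could meet, so the shares are not alike. The interval was chosen on this comparison, and nothing is read from the count. The processed pseudogene Rps19-ps3 (chr4:147821777-147822202) had counts of 100, 86 and 111 in Foxp3ΔJag1 nodes, 34, 34 and 23 in Foxp3Ctrl tumours and 41, 40 and 45 in Foxp3Ctrl nodes, a mean of 2.56 ± 0.0616 CPM in Foxp3ΔJag1 nodes and 1.11 ± 0.171 CPM in Foxp3Ctrl nodes (SD, n = 3 each). It is a copy of a ribosomal protein gene, so reads of that gene may be counted on it. The long non-coding RNA Gm13166 (chr4:146251829-146278434) had counts of 27, 20 and 28 in Foxp3ΔJag1 nodes, 5, 5 and 7 in Foxp3Ctrl tumours and 11, 15 and 16 in Foxp3Ctrl nodes, a mean of 0.645 ± 0.0518 CPM in Foxp3ΔJag1 nodes and 0.368 ± 0.0760 CPM in Foxp3Ctrl nodes. Neither difference was tested.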

How the results depend on the processing

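Members called between the node groups numbered 2 of 34, as under DESeq2 size factors and a joint fit of the 9 libraries. The count was 1 (Zfp990) with library size only and with a filter of 1 CPM in 3 libraries. It was also 1 (Zfp990) with a non-robust dispersion and with a replicate block. It was 4 with no filter on low counts and 6 with DESeq2, and ranged from 1 to 4 when 1 library was left out. The interval was chosen on this comparison, and nothing is read from these counts. All genes called in the node comparison numbered 7, against 16 with no filter on low counts, 70 with DESeq2 and 11 with the replicate block, and 6 to 21 when 1 library was left out. Nodes of the different genotypes share only a replicate number (correlations of same-numbered deviations -0.188, 0.042 and -0.137; 1 of 3 Foxp3ΔJag1 nodes correlated best with the control node of its own number). Of the tumour comparison, every count stayed within 1.5 times its value under each alternative, and the replicate block, which pairs tumour and node by mouse, left 10 members higher and 13 lower. Leaving out 1 library gave 9 to 11 members higher and 13 to 14 lower. Of the 23 called members, 22 kept direction and call in each alternative in which they were fitted; Fbxo6 did not in 2. Depth limits the members under 0.5 CPM: a count of 0 over the 3 Foxp3Ctrl nodes allows up to 0.0261 CPM. The causes of these changes were not tested.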
